A study of Mus musculus with 2 samples.

Results

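The Bcl2 family decides at the mitochondrion whether a stressed cell dies by apoptosis. Its guardians (Bcl2, Bcl2l1, Bcl2l2 and Mcl1 among the genes described here) hold the pore-forming effectors in check. The BH3-only proteins (Bid, Bik, Bad, Bcl2l11 and Bmf) carry stress signals, and they occupy the guardians or act on the effectors directly. Bak1 encodes an effector that sits in the outer mitochondrial membrane. The transcription factor p53 reaches this family mainly through Bax, Bbc3 and Pmaip1, which are left out of the 10 members and serve as neighbours for comparison. Bid has also been described as a p53-responsive gene, so the boundary is one of convention. The members were taken by symbol, and all 10 were found in both libraries among 25668 gene symbols.

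RNA-seq was done on 2 libraries of epithelial organoids from the mouse fallopian tube, or oviduct, 1 labelled WT and 1 labelled Trp53 KO. The control organoids came from a Cas9-EGFP mouse with the allele Gt(ROSA)26Sortm1(CAG-cas9*,-EGFP)Fezh on a B6J.129(B6N) background. Both libraries carry the treatment label Conditioned medium. The age of the donor mouse, the way the gene was disrupted, and whether the KO organoids are 1 clone are not stated in the sources used. With 1 library in each group there is no replicate check, no test and no p-value: every difference below compares these libraries. Levels are TPM, which is per gene length. Comparisons between genes rest on the length used, for most genes that of all merged coding exons. Which transcripts were present was not measured, so levels of different genes compare only roughly. In bulk RNA, fewer cells of a type and less RNA per cell cannot be told apart.

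Whole reads behind the TPM values were recovered for 15284 of 16534 genes above 0 TPM in either library. They summed to 110729171 in the WT and 30596282 in the KO library, without the genes that did not resolve. The members had 170 to 22631 reads in the WT and 126 to 6260 in the KO library. Parentheses after a ratio are 95% intervals, and they cover only the counting error of reads, because each group has 1 library. Reads carried no molecular identifiers and may repeat a molecule, so the intervals may be too narrow even for that error. Trp53 itself was 83.2 TPM in the WT library (9256 reads) and 2.42 TPM in the KO library (80 reads). The epithelial markers Epcam, Cdh1, Krt8, Krt18 and Pax8 were present in both libraries and under 2-fold different. Ovgp1 and Foxj1, of secretory and multiciliated cells, were at least 2-fold lower in the KO library. Pax8, which also marks secretory cells, was 44.8 TPM in the WT and 46.0 TPM in the KO library. The secretory markers Ovgp1 and Pax8 thus did not move together. The 5 fibroblast markers summed to 0.0637 TPM in the WT library and were all listed at 0 in the KO library, and the 4 endothelial markers summed to 0.0829 and 0.0269 TPM. Of 5 immune markers Csf1r was 8.78 and 0.420 TPM, Ptprc was 0.0886 and 0.0110 TPM, and Cd3e and Cd79a were listed at 0 in both. Among 3 mesothelial markers Msln was 243 and 232 TPM, Upk3b was 1.27 and 1.41 TPM and Lrrn4 was 0.0136 and 0.0304 TPM. Krt5, a keratin gene of basal cells picked with its values in view, went from 0.130 TPM (WT) to 1543 TPM (KO). The part of such differences in cell makeup in the results below was not tested.

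Differences were computed as log2(TPM + 1) in the KO minus the WT library, over 11228 genes whose mean TPM reached 1. All 10 members passed this filter. At least 2-fold on this scale, 2 members were higher (Bik and Bcl2l11) and 3 were lower (Bcl2l2, Bid and Bmf). Over all measured genes 8.35% passed 2-fold upward and 15.3% downward, 23.6% in all, so 5 of 10 members is above that share, and 10 genes are too few to read more from it. The median difference of the members was −0.39, against −0.17 over all measured genes. At 4-fold on this scale only Bik passed, against 8.27% of all measured genes (2.38% higher and 5.89% lower). On plain TPM, Bcl2l11 (4.71-fold higher) and Bmf (5.08-fold lower) were past 4-fold too. The pseudocount of 1 damps such low genes. Quantile normalization moved the split over all genes from 937 higher and 1715 lower to 1292 and 1321, and under it Bcl2l2 was no longer 2-fold lower.

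The members covered a wide range of levels. In the WT library the order from the top was Mcl1, Bcl2l1, Bad, Bak1, Bid, Bcl2l2, Bmf, Bcl2, Bik and Bcl2l11. In the KO library it was Mcl1, Bak1, Bcl2l1, Bad, Bik, Bid, Bcl2l11, Bcl2l2, Bcl2 and Bmf. Mcl1 stood first in both. Neighbours in this order were apart by more than counting error, except Bik and Bcl2l11 in the WT library (ratio 1.18, 0.991 to 1.40), and Bak1 and Bcl2l1 (1.004, 0.952 to 1.06) and Bik and Bid (1.07, 0.945 to 1.20) in the KO library. Bmf moved from the seventh place to the last, and Bik from the ninth to the fifth.

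**Figure D1:**
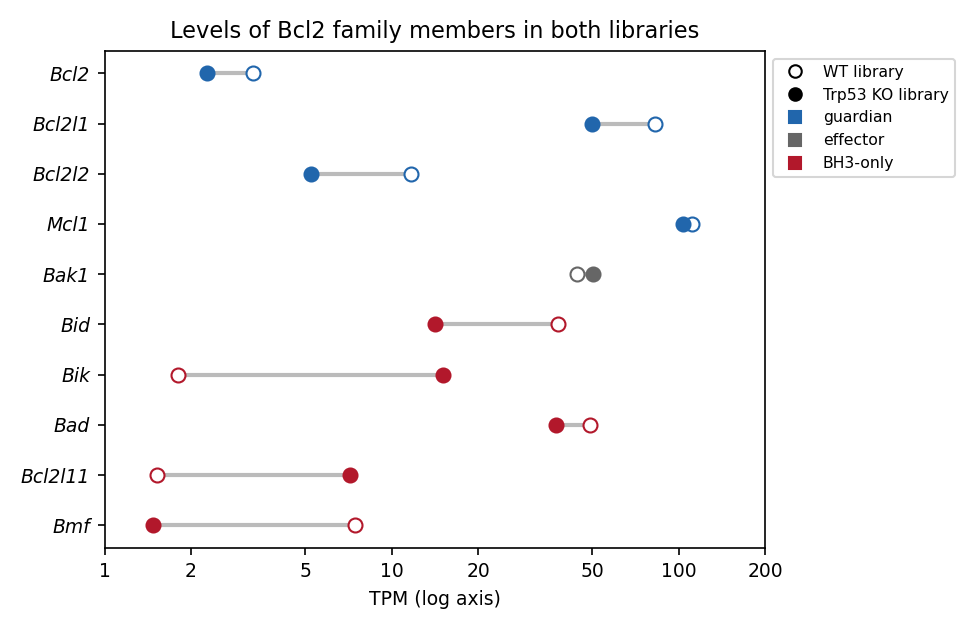
TPM of the 10 members on a log axis, open circles for the WT library and filled circles for the Trp53 KO library, 1 library each and so without error bars. The longest lines belong to the BH3-only genes Bik (1.80 to 15.1 TPM), Bcl2l11 (1.52 to 7.16 TPM) and Bmf (7.47 to 1.47 TPM), while Mcl1 stays near 100 TPM (111 and 104 TPM).

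All 4 guardians had lower TPM in the KO library, by very different amounts, and 1 of them passed 2-fold. Mcl1, a short-lived guardian whose protein is turned over by the proteasome, was 111 TPM in the WT and 104 TPM in the KO library, a ratio of 0.931 (0.905 to 0.957). Its log2 difference of −0.10 turned to 0.07 with rescaling by the median ratio and to 0.13 relative to its chromosome, so Mcl1 had no direction that held across scalings. Bcl2l1, which encodes Bcl-xL, was 82.9 and 49.9 TPM, a ratio of 0.603 (0.583 to 0.623) from 22626 and 4051 reads. Its log2 difference was −0.72, under the 2-fold threshold, and negative under all 8 alternatives.

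Bcl2l2, which encodes Bcl-w, was 11.7 TPM in the WT and 5.22 TPM in the KO library, a ratio of 0.448 (0.402 to 0.497). The log2 difference of −1.03 lay close to the threshold, with a counting interval of −1.16 to −0.90. It was −0.88 after rescaling by the median ratio and −0.78 relative to the median of its chromosome, both under 2-fold. Bcl2, the founding guardian, was the scarcest of the 4 at 3.28 and 2.27 TPM, a ratio of 0.691 (0.616 to 0.773), and its log2 difference of −0.39 was −0.01 after quantile normalization. The median over the guardians was −0.55. Bcl2l2 shares 594 exon bases with the read-through gene Gm20521, which was 0.459 and 0.727 TPM, and the antisense gene D630008O14Rik overlaps 558 exon bases of Bcl2.

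The effector Bak1 was 44.3 TPM in the WT and 50.1 TPM in the KO library, a ratio of 1.13 (1.08 to 1.19). It was one of 3 members with higher TPM in the KO library, and the only one of these under 2-fold. Bcl2l1 encodes a guardian that binds Bak, and the ratio of Bcl2l1 to Bak1 TPM went from 1.87 (1.82 to 1.92) in the WT library to 0.996 (0.945 to 1.05) in the KO library. The ratio of Mcl1, the other main binder of Bak, to Bak1 was 2.51 (2.44 to 2.58) and 2.06 (1.97 to 2.17). These are ratios of mRNA levels, and protein was not measured.

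The BH3-only genes moved apart. Of the 5, 2 passed 2-fold upward in the KO library and 2 downward, with a median difference of −0.39. Bik, a BH3-only protein of the endoplasmic reticulum, was 1.80 TPM in the WT library (170 reads) and 15.1 TPM in the KO library (425 reads), a ratio of 8.41 (7.03 to 10.1). This was the largest difference among the members, at the 98.6th percentile of all measured genes. Bcl2l11, which encodes Bim, a BH3-only protein that binds all the guardians named here and can activate the effectors, was 1.52 TPM (624 reads) and 7.16 TPM (874 reads). Its ratio was 4.71 (4.25 to 5.23), at the 96.7th percentile.

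Bmf, a BH3-only gene linked to death after loss of matrix contact, went the other way. It was 7.47 TPM in the WT library (2155 reads) and 1.47 TPM in the KO library (126 reads), a ratio of 0.197 (0.163 to 0.236) at the 7.39th percentile. Bmf and Bcl2l11 proteins both bind dynein light chains of the cytoskeleton, and their mRNAs exchanged rank: Bmf exceeded Bcl2l11 by 4.91-fold (4.50 to 5.37) in the WT library, and in the KO library the Bmf to Bcl2l11 ratio was 0.205 (0.170 to 0.247). With a pseudocount of 5 neither gene passed 2-fold, at 0.90 for Bcl2l11 and −0.95 for Bmf, since a larger pseudocount damps low genes.

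Bid, which caspase-8 cleaves to link death receptors to the mitochondrion, was 38.0 and 14.2 TPM, a ratio of 0.373 (0.346 to 0.402). It was at least 2-fold lower under all 8 alternatives that keep the 2-fold threshold, with log2 differences from −1.42 to −1.09. Bad, which is inactivated when growth factor kinases phosphorylate it, was the most abundant BH3-only gene in both libraries at 49.2 and 37.4 TPM, a ratio of 0.760 (0.719 to 0.803). Its log2 difference of −0.39 was under 2-fold. On the opposite strand Bid overlaps 628 exon bases of Bcl2l13 (8.78 and 10.1 TPM), Bad overlaps 524 exon bases of Gpr137 (15.2 and 9.01 TPM), and Bak1 overlaps 614 exon bases of Ggnbp1 (1.23 and 0.524 TPM). No source used here says whether the counting used strand, so reads of these pairs may not be fully separated. Bik, Bcl2l11 and Bmf share no exon bases with another annotated gene.

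**Figure D2:**
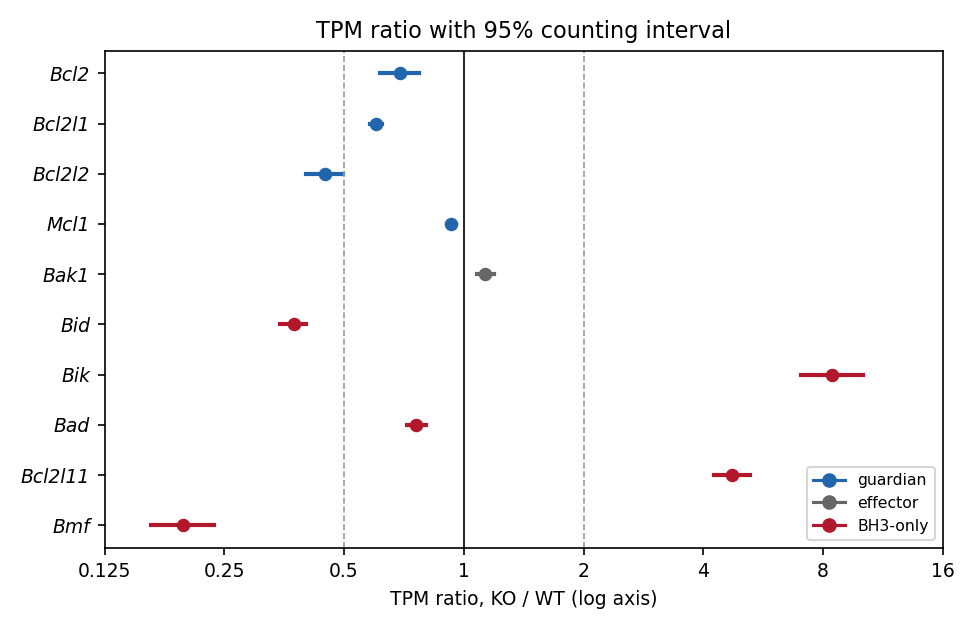
Ratio of KO to WT TPM for each member on a log axis, with the 95% counting interval as a bar and dashed lines at 2-fold. The interval does not include replicate error. The guardians and Bak1 lie between 0.448 and 1.13, whereas the BH3-only genes run from 0.197 (Bmf) to 8.41 (Bik).

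The promoters of Bcl2l11 and Bmf are shown because these BH3-only genes lie on the same chromosome and differed in opposite directions. Each is the 250 bases before the most upstream RefSeq start, from build GRCm38.p6, which is an earlier build than that of the deposited values. Capitals mark matches on either strand to the motifs searched. The Bcl2l11 window is chr2:128125788-128126037 on the plus strand, and the Bmf window is chr2:118549687-118549936 on the minus strand.
Bcl2l11: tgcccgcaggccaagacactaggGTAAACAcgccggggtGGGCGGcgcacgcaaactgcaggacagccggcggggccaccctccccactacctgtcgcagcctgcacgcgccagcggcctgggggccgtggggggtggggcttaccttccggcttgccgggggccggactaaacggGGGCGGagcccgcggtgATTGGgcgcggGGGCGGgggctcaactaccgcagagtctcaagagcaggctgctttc
Bmf: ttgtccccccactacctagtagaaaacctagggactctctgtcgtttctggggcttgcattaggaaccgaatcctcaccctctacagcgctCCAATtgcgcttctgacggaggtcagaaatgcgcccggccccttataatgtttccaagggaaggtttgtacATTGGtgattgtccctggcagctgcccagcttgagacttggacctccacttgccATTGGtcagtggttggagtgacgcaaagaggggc

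The 8 motifs searched on both strands were the GC box GGGCGG, the CCAAT box CCAAT, the TATA box TATAAA, the E-box CACGTG, the forkhead motif GTAAACA, an E2F motif GGCGGGAA, and the NF-kB and p53 half-site consensus. GGGCGG and GGCGGGAA can overlap. The Bcl2l11 window had 72.0% G and C, with 3 GC boxes, 1 CCAAT box and 1 forkhead match. The Bmf window had 54.0% G and C, near the median of 52.4% over 32851 windows, with 3 CCAAT boxes and no GC box. The forkhead letters occur in 3.17% of all windows, GC boxes in 32.7% and CCAAT boxes in 33.8%. Of the 9 members with a RefSeq window (all but Bik), 6 had a GC box, and none of the 9 most upstream windows held the p53 half-site, which occurs in 7.13% of all windows. Of the 6 further windows, at other starts of these members, 1 held it, a Bmf window with 1 match 203 bases before its start. Matches are descriptions of letters in this window. Foxo1 and Foxo3 encode forkhead factors known to activate Bcl2l11. They were 22.8 and 17.4 TPM in the WT library and 11.4 and 8.57 TPM in the KO library, log2 differences of −0.94 and −0.95. Any part of these factors in the Bcl2l11 difference was not tested.

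Summed over their members, guardians and BH3-only genes stood in nearly the same proportion in both libraries. Guardian TPM summed to 209 in the WT and 161 in the KO library, and BH3-only TPM to 97.9 and 75.3. The guardian to BH3-only ratio was 2.13 (2.10 to 2.17) in the WT library and 2.14 (2.06 to 2.22) in the KO library. The ratio of these ratios was 1.002, with a counting interval of 0.959 to 1.05. Scaling between libraries cancels in such a ratio.

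Inside the sums the makeup changed. Mcl1 was 53.2% of guardian TPM in the WT library and 64.3% in the KO library, and Bcl2l1 was 39.6% and 31.0%. Among BH3-only genes, Bid was 38.8% in the WT library and 18.8% in the KO library. Bik was 1.83% and 20.1%, Bcl2l11 was 1.55% and 9.52%, and Bmf was 7.63% and 1.95%. Bad held 50.2% and 49.6%.

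The equal proportion depended on which genes were summed. Without Mcl1 the guardian to BH3-only ratio was 0.999 (0.980 to 1.02) in the WT and 0.763 (0.729 to 0.798) in the KO library. Without Bid it was 3.49 (3.41 to 3.57) and 2.63 (2.52 to 2.75), and without Bik it was 2.17 (2.14 to 2.21) and 2.67 (2.57 to 2.79). Leaving out Mcl1, Bid or Bmf thus put the KO library lower, leaving out Bcl2l1, Bik or Bcl2l11 put it higher, and leaving out Bcl2, Bcl2l2 or Bad left the ratio of ratios within counting error of 1.

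**Figure D3:**
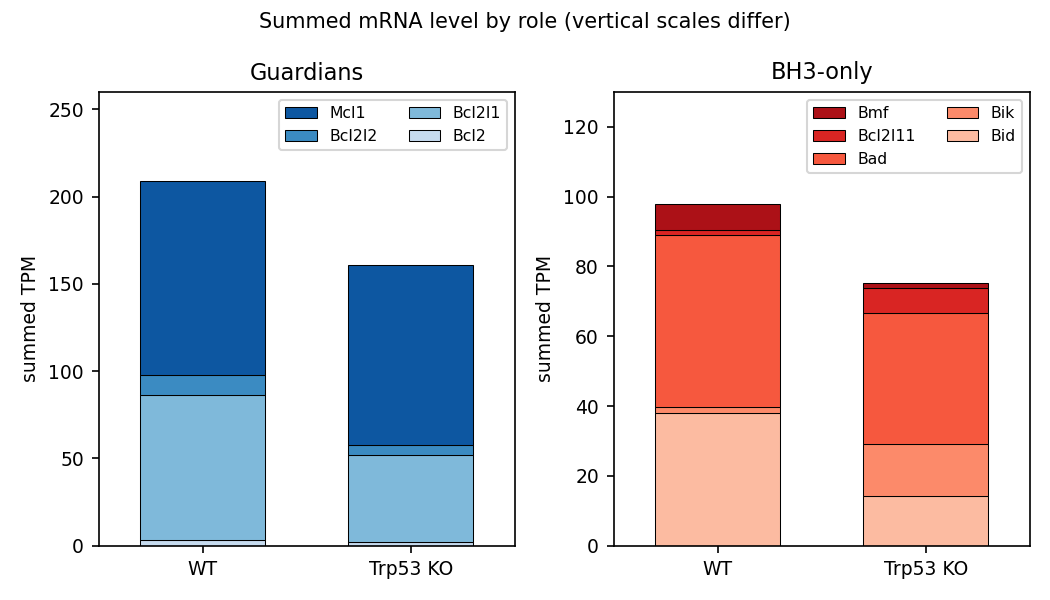
Summed TPM of the 4 guardians (left) and the 5 BH3-only genes (right) in the WT and KO libraries, with each gene as a segment and different vertical scales. Guardians sum to 209 and 161 TPM and BH3-only genes to 97.9 and 75.3 TPM, while the Bik and Bcl2l11 segments widen and the Bid and Bmf segments narrow.

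Bcl2l1, Bcl2l11 and Bmf lie on chromosome 2, whose 895 measured genes had a median difference of 0.20, the second highest of 20 chromosomes after chromosome 4 at 0.63. The other 18 medians ran from −0.36 to −0.14. Relative to the median of their own chromosome, Bcl2l1 was −0.92, Bcl2l11 was 1.50 and Bmf was −1.98. Bcl2l11 was thus less far above, and Bcl2l1 and Bmf further below, their chromosome than the unadjusted values. Bik on chromosome 15 was 2.70 and Bid on chromosome 6 was −1.09 on the same relative scale. In gene order, the 3 measured protein-coding genes on either side of Bik had differences from −0.61 to 1.11, all below Bik at 2.53. The 6 around Bid ran from −0.66 to 0.94, all above Bid at −1.36. Bcl2l11 at 1.70 lay within the range of its neighbours, −0.93 to 1.75, where the mitotic kinase gene Bub1 was 9.77 and 34.2 TPM. Bmf at −1.78 lay within the range of −2.04 to 4.35 around it.

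The family genes that p53 activates directly were lower or little different. Bax, an effector, was 245 TPM in the WT and 148 TPM in the KO library, a ratio of 0.606 (0.584 to 0.628), close to that of Bcl2l1. Bbc3, which encodes the BH3-only protein Puma, was 9.63 and 3.76 TPM (0.391, 0.324 to 0.468). It was the 1 of 3 at least 2-fold lower, against 15.3% of all measured genes. Pmaip1, which encodes Noxa, was 15.3 and 14.4 TPM, within counting error (0.943, 0.865 to 1.03).

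Of 13 other relatives of Bcl2, 9 were measured, with 2 at least 2-fold higher, 1 lower and a median difference of 0.12. Over all measured genes the shares were 8.35% higher and 15.3% lower, and 9 genes are too few to read more from the counts. Bok, a relative of the effectors, was 10.6 TPM in the WT and 82.5 TPM in the KO library, a ratio of 7.75 (7.21 to 8.33). With Bok at 82.5, Bak1 at 50.1 and Bax at 148 TPM, Bok was the second most abundant of these 3 in the KO library and the scarcest in the WT library. Bnip3, a mitophagy receptor with a BH3-like stretch, was 4.26 and 139 TPM, and its relative Bnip3l was 83.2 and 140 TPM. Bcl2l14 was 4.85 and 1.62 TPM. Bcl2a1d, a guardian of the A1 group, was 7.55 and 4.72 TPM, and its close copy Bcl2a1b was 0.0617 and 1.52 TPM from 3 and 22 reads. The A1 genes are nearly identical and can share reads, so their single values are uncertain.

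For genes acting upstream of, on or downstream of the family, calls are on the log2(TPM + 1) scale. On it 8.35% of all measured genes passed 2-fold upward and 15.3% downward. The lists here are too short to read more from their counts. Of 12 genes of the apoptosome, the caspases and their inhibitors, 1 was at least 2-fold higher and 0 were lower, with a median of −0.08. The higher gene was Birc5, survivin, which also works in mitosis, at 30.9 and 81.7 TPM. Birc2 was 13.8 and 6.72 TPM, a plain ratio of 0.488 that the pseudocount brings under 2-fold. Cytochrome c (Cycs), which is released through the pore, was 81.9 and 102 TPM. Of 7 genes on the death receptor route to Bid, 1 passed 2-fold downward and 0 upward, and the median was −0.48. The gene that passed was the TRAIL receptor gene Tnfrsf10b, also a known p53 target, at 16.1 and 4.34 TPM. Casp8, whose product cleaves Bid, was 27.2 and 19.2 TPM, the receptor gene Tnfrsf1a was 99.3 and 53.3 TPM, and its adaptor gene Tradd was 25.7 and 33.0 TPM. Of 16 genes whose products bind, modify or transcribe the members, none passed 2-fold on this scale and the median was −0.24. On plain TPM the ratios of Foxo1 (0.499) and Foxo3 (0.491) were just past 2-fold. The dynein light chain genes Dynll1 and Dynll2, whose products hold Bim and Bmf, were 313 and 99.7 TPM in the WT library and 337 and 96.9 TPM in the KO library, and the 14-3-3 gene Ywhae, of the family that holds phosphorylated Bad, was 716 and 677 TPM.

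**Figure D4:**
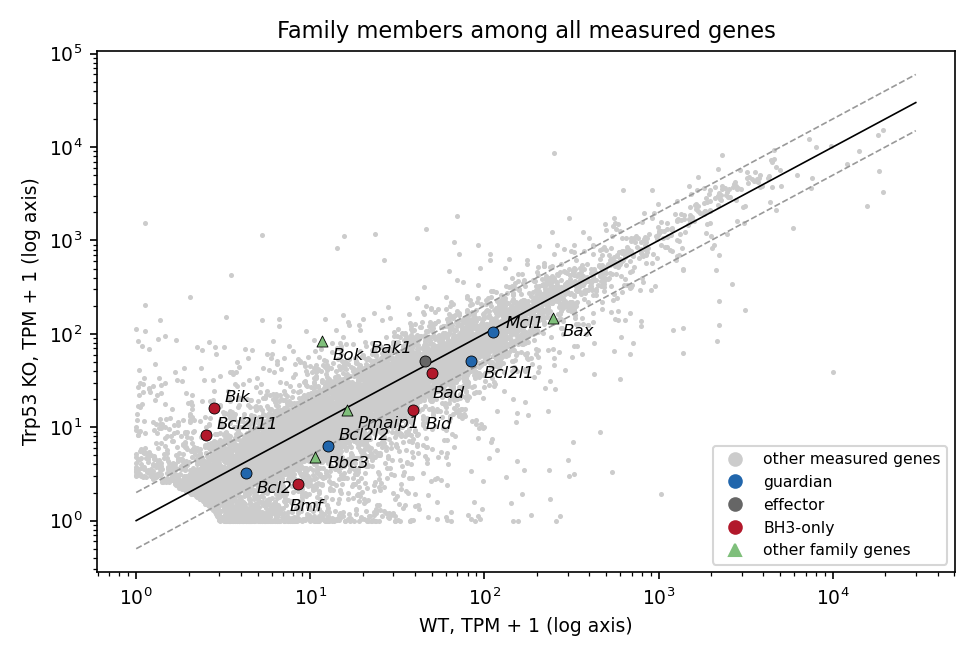
WT against KO TPM, each plus 1, on log axes for 11228 measured genes, with the members coloured by role, 4 other family genes as triangles, the line of equality and dashed lines at 2-fold. Bik, Bcl2l11 and Bok lie above the upper dashed line, while Bmf, Bid, Bbc3 and Bcl2l2 lie below the lower one.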

How the data were processed

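RNA was measured in 1 WT and 1 Trp53 KO library, grouped by the genotype labels. Libraries were strand-preserving and paired-end, per the labels' protocols. The authors deposited TPM for 25668 symbols per library, on build GRCm39 per the submitters' processing notes. Which aligner, counter, strand setting and annotation were used is not given in the sources used here.

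A TPM value is a constant of the library times reads over gene length. Whole reads were recovered by finding the integer length at which both libraries give integers within 0.0001 reads, nearest to the merged exons of coding transcripts in GENCODE M21. Of 7237 named genes above 5 TPM in both libraries, 99.97% resolved, 98.2% at exactly that merged length. So did 9 of 10 members, and Bmf resolved at 4846 instead of 4831 bases. Recovery and calls were tested on simulated data. The simulation used the same merged lengths as the recovery and counting noise only. It therefore could not test the choice of annotation or variation between replicates. One read at 1000 bases was worth 0.0168 TPM in the WT and 0.0565 TPM in the KO library.

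Ratio intervals are exact Clopper-Pearson at 95%, and those of sums and of ratios between genes' sums use the normal approximation of Poisson error on the log scale. Differences use a pseudocount of 1 and a mean TPM of at least 1. The rule for named genes was all 10 members, Trp53 and, per context list, the genes past 2-fold and the 2 with the highest mean, up to 4. Others named are members' overlapping or neighbouring genes, markers, Krt5, Casp8, Birc2, Bcl2a1b, Bcl2a1d, Dynll2, Foxo1 and Foxo3, chosen after their values were seen. The members and lists were chosen with earlier results of these data known. One gene of the caspase list is not reported here and was left out of that list's counts. Alternatives changed the pseudocount, filter, scaling, chromosome centring or threshold. Python 3.11.15, numpy 2.4.6 and scipy 1.17.1 were used.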

Additional observations from a re-analysis of the deposited data

How the results depend on the processing

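Each alternative changed 1 choice. With a pseudocount of 5, 1493 genes and 2 members (Bik and Bid) were at least 2-fold different, and the guardian median was −0.43. At a mean TPM of at least 5, 3 of 7 remaining members passed and the guardian median was −0.72. At 4-fold on the log2(TPM + 1) scale, 928 genes and 1 member (Bik) passed. The guardian and BH3-only medians were −0.41 and −0.21 after rescaling by the median ratio and −0.44 and −0.25 relative to the chromosome median, and the guardian median was −0.32 after quantile normalization. These 3 scalings each left 4 members past 2-fold, without Bcl2l2. The median of all genes, −0.17 as deposited, was −0.01 with the median ratio and 0.03 with quantiles. Each member kept its sign under every alternative run for it, except Mcl1 under 2. The guardian to BH3-only ratio was 2.14 and 2.10 under quantile normalization. No library could be left out and no paired analysis was possible because each group has 1 library. The KO library was 3.62 times shallower in recovered reads. Bmf (126 reads in the KO library) and Bik (170 reads in the WT library) had the widest intervals among the members.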
